A study of Oryza sativa with 12 samples.

Results

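The comparison set 3 culm libraries of the rice line TAC4L/TAC4-KO, in which both TAC4 and TAC4L were targeted, against 3 culm libraries of its wild type (WT), the japonica cultivar Zhonghua 11. These are 6 of the 12 RNA-seq libraries of the series, which also holds 3 libraries each of TAC4-KO and TAC4L-KO. All plants were at heading, the stage at which the panicle emerges from the leaf sheath, and no treatment is given in the labels. The sample titles name the lines as knockouts (KO) and the genotype field as knockdowns, and TAC4L/TAC4-KO is written double-KO from here on. The sources used here do not give the edited positions, the number of independent lines or the plants behind each library, so p-values measure the spread between libraries, which may be technical. Of 55986 genes in the deposited table, 19121 had a mean of at least 1 FPKM (fragments mapped to a gene, scaled to its length and to the library's total) over the 6 libraries and were compared.

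A rice culm is a hollow stem of nodes and internodes whose strength comes from sclerenchyma fibres and vascular bundles with thick secondary walls. Cellulose in those walls is spun at the plasma membrane by a complex of CESA4, CESA7 and CESA9, whereas a different set of CESA proteins builds the primary wall of growing cells. Loss of any of the secondary wall subunits, or of the COBRA-like protein BC1, is known in rice to give a culm that snaps when bent. The culm is also a store: before and around heading it holds starch, which is later turned into sucrose and sent to the grain. TAC4 is known in rice as a regulator of tiller angle through auxin, and TAC4L is a gene named after it.

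Sequencing depth, read from the spacing of the lowest values, was 1.57, 2.58 and 1.57 times that of WT replicate 1 in the double-KO libraries and 2.14 and 2.15 times in WT replicates 2 and 3. No 2 of the 12 libraries held identical values. WT replicate 3 stood apart from its group in part of the transcriptome. In 174 tested genes it was at least 4-fold above both other WT libraries on the log2(FPKM + 1) scale, against 49 genes for WT replicate 1, 5 for WT replicate 2 and 0, 5 and 24 for the double-KO libraries. Values without it are given beside many of the falls in which it was the highest library. The median within-group standard deviation of a gene was 0.322 log2 units in WT and 0.223 in double-KO.

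The targeted genes were looked at first. TAC4 (LOC_Os02g25230) stood at 7.32, 4.75 and 5.59 FPKM in WT and 16.5, 15.3 and 13.2 in double-KO (log2 change 1.23 with an SE of 0.19, limma adjusted p = 0.0004). Every double-KO library was above every WT library, so the transcript level was opposite to the word knockdown. The single lines were also above every WT library, at 13.5, 9.13 and 11.5 FPKM in TAC4-KO and 9.83, 8.22 and 8.36 in TAC4L-KO. Double-KO differed by 0.38 from TAC4-KO (limma adjusted p = 0.21) and by 0.70 from TAC4L-KO (limma adjusted p = 0.015). An exact permutation test on TAC4 gave p = 0.1, the smallest possible with 3 libraries against 3. TAC4L (LOC_Os04g19140) stood at 0.883, 0.453 and 0.798 FPKM in WT and 0.527, 0.376 and 0.395 in double-KO, below the expression filter. Its groups overlapped, with an exact permutation p of 0.2. A small edit need not change how much transcript is counted, so these levels do not check the labels.

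The culm transcriptome differed widely between double-KO and WT. Limma, run on log2(FPKM + 1) with all 12 libraries in the fit, called 9208 of 19121 genes at an adjusted p under 0.05, which is 48.2%. Of these, 3890 (20.3% of tested genes) were higher and 5318 (27.8%) were lower in double-KO. The large changes were mostly falls: 444 genes fell by a log2 change of at least 3 and 93 rose by as much, and at a log2 change of 5 the counts were 62 and 11. The split into higher and lower moved with the scaling between libraries. Falls made up 57.8% of the calls on the deposited scale, 51.2% after scaling by the median of ratios and 45% after quantile normalization, while the median change of all tested genes went from -0.10 to -0.01 and 0.07. Of the calls, 6407 kept their direction without each of the 6 libraries in turn and under both other scalings, 2726 of them higher and 3681 lower.

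**Figure D1:**
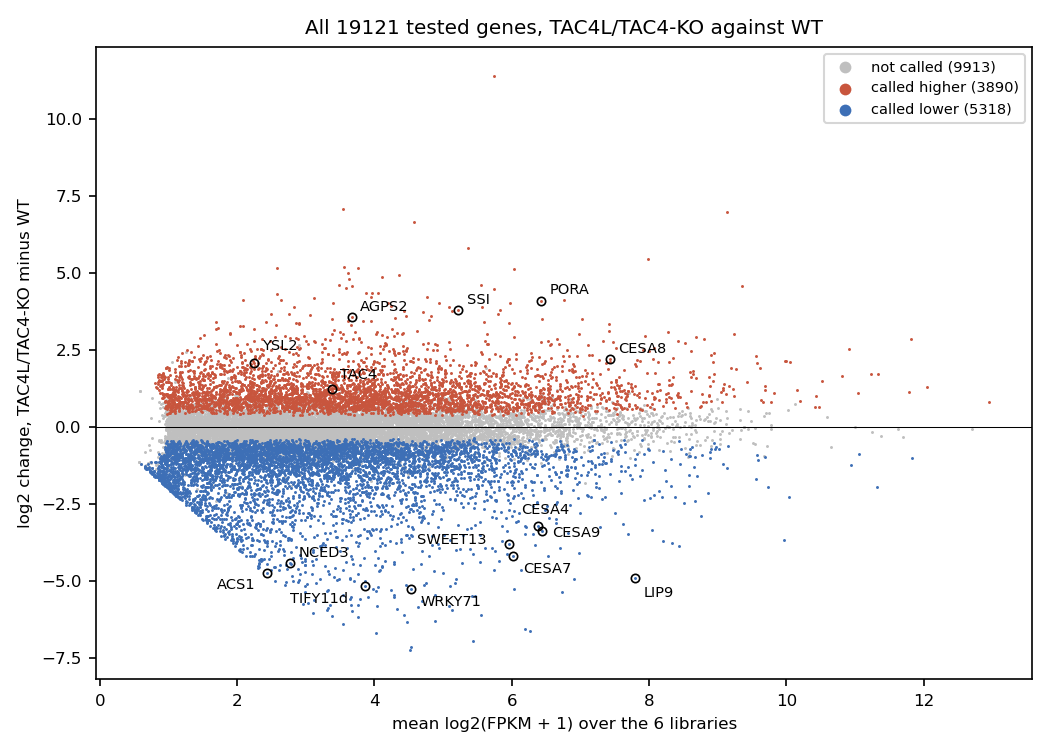
Log2 change in double-KO minus WT (vertical axis) against the mean log2(FPKM + 1) over the 6 libraries (horizontal axis) for the 19121 tested genes, coloured by limma call at an adjusted p under 0.05, with 15 genes described in the text circled. Of the 5318 called falls 1123 lie at or beyond a log2 change of -2, and of the 3890 called rises 391 lie at or beyond 2.

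The balance of the whole messenger pool shifted with these calls. Genes called higher held 16.8% to 19.6% of all FPKM in the WT libraries and 45.6% to 48.1% in double-KO. Genes called lower held 35.3% to 38.2% in WT and 10.6% to 11.7% in double-KO. The calls were made on these 6 libraries, so those shares describe the size of the shift and do not test it. In the single-line libraries, which were in the fit but not in this comparison, the genes called higher held 21.6% to 28.7% in TAC4L-KO and 31.3% to 37.3% in TAC4-KO. The genes called lower held 23.7% to 31.5% in TAC4L-KO and 16.7% to 21.8% in TAC4-KO. These shares are descriptive too, because the genes were picked by their WT and double-KO values. Highly expressed genes were called higher more often: 33.9% of genes averaging 100 FPKM or more were called higher and 23.2% lower, against 16.2% and 28% of genes between 1 and 5 FPKM. Calls were spread over all 12 chromosomes, with between 45.7% and 50.8% of the tested genes called on each.

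Among the structural genes that were looked at, CESA4, CESA7 and CESA9 gave the clearest change. None of the secondary wall regulators drawn up, such as SWN1, SWN2, MYB46 and MYB61, was looked at, because their symbols were not found in the RefSeq gene annotation. The same held for most brittle culm genes drawn up, among them BC3, BC10, BC12, BC14, BC15 and MYB103L. CESA4 (LOC_Os01g54620) stood at 338, 252 and 192 FPKM in WT and 30.4, 37.1 and 15.8 in double-KO. CESA7 (LOC_Os10g32980) stood at 358, 283 and 206 FPKM in WT and 17.8, 19.1 and 8.26 in double-KO, and CESA9 (LOC_Os09g25490) at 344, 315 and 199.9 FPKM in WT and 34.2, 36.6 and 14 in double-KO. The lowest WT library was over 5 times the highest double-KO library for each of the 3 genes, and double-KO replicate 3 was the lowest of the 6 libraries for all 3. The log2 changes were -3.23, -4.19 and -3.37 (SE 0.40, 0.40 and 0.43), with limma adjusted p of 0.00011, 2.5e-05 and 0.00011. With any 1 library left out the changes ranged from -3.47 to -2.88 for CESA4, -4.40 to -3.83 for CESA7 and -3.61 to -2.94 for CESA9. RNA came from whole culm tissue, so fewer fibre and vessel cells and less transcript per cell cannot be told apart here or in any result that follows.

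In neither single line were the same 3 genes as low as in double-KO. Summed over CESA4, CESA7 and CESA9, the level was 1039, 850 and 598 FPKM in WT, 1008, 1657 and 1242 in TAC4L-KO, 1375, 501 and 597 in TAC4-KO, and 82.4, 92.7 and 38.0 in double-KO. Every single-line library was thus above every double-KO library. CESA7 changed by -3.78 against TAC4-KO (limma adjusted p = 0.00029) and -4.55 against TAC4L-KO (limma adjusted p = 3.4e-05). CESA4 and CESA9 differed by -3.28 and -3.34 against TAC4-KO and by -4.07 and -4.11 against TAC4L-KO, and all passed the test. As background, 14.5% of tested genes were called between double-KO and TAC4-KO (5.02% higher, 9.52% lower) and 34.6% between double-KO and TAC4L-KO (11.8% higher, 22.8% lower). Falls made up 65.5% of the first set of calls and 65.8% of the second on the deposited scale, 48.6% and 47.3% after scaling by the median of ratios, and 46.2% and 45.4% after quantile normalization.

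BC1 (LOC_Os03g30250), the COBRA-like protein that orders cellulose microfibrils, stood at 38.5, 24.4 and 21.1 FPKM in WT and 5.13, 6.87 and 6.35 in double-KO (log2 change -1.99 with an SE of 0.57, limma adjusted p = 0.013), with no overlap between the groups. The single-line libraries held 214, 35.1 and 73.0 FPKM in TAC4-KO and 43.0, 127 and 126 in TAC4L-KO, all but 1 of them above every WT library, and the difference of double-KO was -3.55 against TAC4-KO (limma adjusted p = 0.0022) and -3.66 against TAC4L-KO (limma adjusted p = 0.00072). GLU1, a membrane-bound endoglucanase that acts in cellulose formation, stood at 20.2, 12.4 and 10.9 FPKM in WT and 6.72, 7.23 and 11.3 in double-KO with overlapping groups. It fell by 0.70 on the log2 scale (limma adjusted p = 0.041), not called under either other scaling or without double-KO replicate 1 or 2 or without WT replicate 1 or 2 (-0.91 to -0.45 with any 1 library left out).

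Primary wall cellulose synthases moved the other way. Of 6 tested, 3 were called higher and 0 lower, against 20.3% higher and 27.8% lower among all tested genes. CESA8 (LOC_Os07g10770) stood at 96.5, 65.9 and 78.0 FPKM in WT and 233, 550.2 and 394 in double-KO (log2 change 2.21 with an SE of 0.39, limma adjusted p = 0.00087) and CESA3 at 103, 89.1 and 95.3 FPKM in WT and 192, 219 and 174 in double-KO (log2 change 1.01 with an SE of 0.20, limma adjusted p = 0.002). For both, all double-KO libraries were above all WT libraries. CESA1 rose as well (log2 change 1.27 with an SE of 0.42, limma adjusted p = 0.025), not called without double-KO replicate 2 or without WT replicate 2 (0.83 to 1.62 with any 1 library left out). CESA2, CESA5 and CESA6 had log2 changes of 0.27, 0.27 and 0.32, none of which passed. The rises were not seen against TAC4-KO, where CESA8 differed by -0.05 (limma adjusted p = 0.95), CESA3 by -0.23 (0.50) and CESA1 by -0.29 (0.69). Nor were they called against TAC4L-KO, at 0.87 (limma adjusted p = 0.1), -0.19 (0.49) and 0.46 (0.41) in the same order. CESA2 was called lower than in TAC4L-KO, at -0.51 (limma adjusted p = 0.044).

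**Figure D2:**
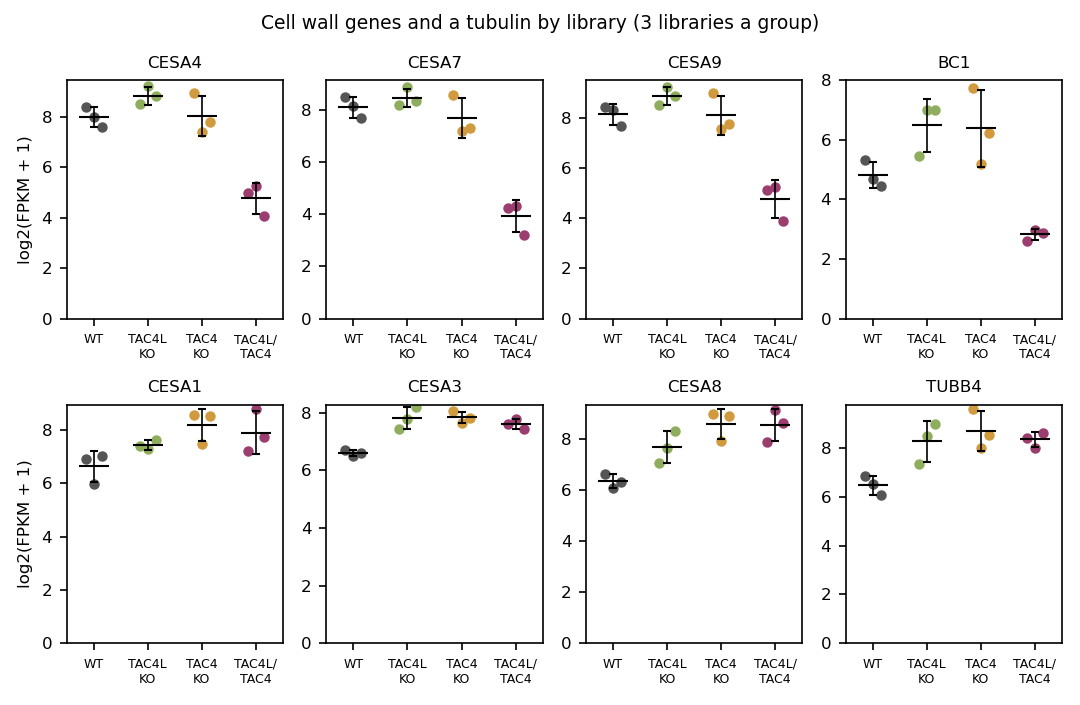
Log2(FPKM + 1) of 7 wall genes and 1 tubulin in the 4 groups, each point a library, with the mean and SD of 3 libraries. CESA4, CESA7, CESA9 and BC1 are lowest in the double-KO libraries, whereas CESA1, CESA3, CESA8 and TUBB4 are higher in double-KO than in WT.

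Matrix polysaccharide genes gave a mixed picture. The list of xylan and mixed-linkage glucan synthesis held 6 tested genes, 1 of them higher and 3 lower. The xylan backbone gene IRX9L stood at 66.8, 55.3 and 50.8 FPKM in WT and 33.4, 32.3 and 24.4 in double-KO (log2 change -0.92 with an SE of 0.24, limma adjusted p = 0.0078), and its relative IRX9 rose, at 9.40, 3.38 and 7.24 FPKM in WT and 11.3, 18.4 and 19.7 in double-KO (log2 change 1.24 with an SE of 0.29, limma adjusted p = 0.0044). The groups of both genes did not overlap. IRX14, the most abundant of these 3, was at 339, 284 and 232 FPKM in WT and 170.1, 211 and 194 in double-KO (log2 change -0.56, limma adjusted p = 0.066) and missed the threshold. XAT2, an arabinosyltransferase of xylan, fell (log2 change -1.76 with an SE of 0.67, limma adjusted p = 0.046), not called under either other scaling or without double-KO replicate 1, 2 or 3 or without WT replicate 3 (-2.11 to -1.12 with any 1 library left out). CSLH1, a synthase of mixed-linkage glucan, fell by 0.86 with overlapping groups, not called without double-KO replicate 2 or 3 or without WT replicate 2 or 3 (-1.20 to -0.63 with any 1 library left out). CSLF6, the main synthase of that glucan, had a change of 0.62 (limma adjusted p = 0.2). Of 4 tested cellulose synthase-like genes, CSLC2, of the family that makes the xyloglucan backbone, stood at 50.4, 47.3 and 39.9 FPKM in WT and 15.1, 12 and 8.29 in double-KO (log2 change -1.90 with an SE of 0.20, limma adjusted p = 4.1e-05). CSLE1 fell by 0.52, not called after quantile normalization or without double-KO replicate 2 or without WT replicate 3 (-0.58 to -0.42 with any 1 library left out), and CSLA1 and CSLD2 did not pass (-0.29 and -0.16).

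The lignin genes that could be tested did not move as a block. Many genes drawn up for the lignin lists were not looked at, because their symbols were not found in RefSeq or lay on another chromosome. Among them were the C4H, C3H, CCoAOMT and F5H genes, and the PAL genes outside chromosome 2. Phenylalanine ammonia-lyase (PAL) and 4-coumarate:CoA ligase (4CL) feed the pathway, and of 8 tested members 0 rose and 3 fell. The most abundant of the tested PAL genes, LOC_Os02g41630, stood at 4552, 3176 and 2263 FPKM in WT and 4058, 2669 and 2740.0 in double-KO with overlapping groups (log2 change -0.05, limma adjusted p = 0.91). A neighbouring copy, LOC_Os02g41650, fell (log2 change -0.73 with an SE of 0.22, limma adjusted p = 0.017), not called without double-KO replicate 1 or 3 or without WT replicate 1 (-0.92 to -0.58 with any 1 library left out). The 2 genes with the steepest falls were low, and WT replicate 3 was the highest library for both: LOC_Os02g41670 stood at 6.97, 8.57 and 38.4 FPKM in WT and 0.0251, 0.0919 and 0.125 in double-KO and 4CL5 at 7.13, 8.68 and 43.1 FPKM in WT and 0.245, 0.270 and 0.245 in double-KO. Their log2 changes were -3.74 and -3.59 (-3.02 and -2.82 without WT replicate 3), and the 4 tested PAL genes lie close together and may share reads. Of 5 tested late enzymes, 2 rose and 0 fell. The hydroxycinnamoyltransferase HCT (LOC_Os04g42250) stood at 143, 109.8 and 128 FPKM in WT and 310.4, 275 and 275 in double-KO (log2 change 1.18 with an SE of 0.22, limma adjusted p = 0.0012) and CAD6, of the cinnamyl alcohol dehydrogenase family, at 2.32, 1.52 and 1.24 FPKM in WT and 10.7, 44.3 and 13.4 in double-KO (log2 change 2.89 with an SE of 0.42, limma adjusted p = 0.00028), both without overlap. The other HCT gene and CAD2 had log2 changes of -0.43 and -0.51 and did not pass. Of the 5 late enzymes 0 were called higher and 2 lower against TAC4-KO, and 1 higher and 0 lower against TAC4L-KO.

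Expansins, which loosen walls during growth, fell in part. Of 13 tested members 5 were called, all lower, and after quantile normalization EXPB5 was also called, higher (1.07, limma adjusted p = 0.039). The largest fall was in EXPB11, at 13.4, 4.63 and 34.4 FPKM in WT and 0.0462, 0.0282 and 0.0461 in double-KO (log2 change -3.77 with an SE of 0.73, limma adjusted p = 0.0016, and -3.11 without WT replicate 3, its highest library). EXPB4 stood at 30.8, 20.6 and 17.9 FPKM in WT and 1.60, 2.49 and 2.08 in double-KO (log2 change -2.95 with an SE of 0.33, limma adjusted p = 6e-05), and EXPA3, EXPA5 and EXPA16 fell by 1.31, 2.72 and 1.06 on the log2 scale (EXPA3 -0.93 and EXPA5 -2.33 without WT replicate 3). All 5 had groups that did not overlap, as did 54.7% of all tested genes (23.8% with double-KO higher and 31% with it lower). The most abundant expansin, EXPB3, stood at 264, 119.6 and 351 FPKM in WT and 70.9, 303 and 90.3 in double-KO and did not pass (log2 change -0.83, limma adjusted p = 0.26); EXPB3, EXPB4 and 2 other members lie side by side and may share reads. Tubulins, which form the microtubules that guide cellulose deposition, rose in part. Of 10 tested members 4 rose and 0 fell, with TUBB4 at 113, 90.5 and 65.6 FPKM in WT and 342, 255 and 388 in double-KO (log2 change 1.87 with an SE of 0.45, limma adjusted p = 0.0053). TUBB3, TUBB5 and TUBA1 rose by 1.49, 1.5 and 1.32, with no overlap between groups. Of the 10 tubulins 0 were called against TAC4-KO, and 1 was called higher and 1 lower against TAC4L-KO. The most abundant member, TUBA2, stood at 3472, 2510.0 and 1902 FPKM in WT and 2118, 2974 and 1938 in double-KO (log2 change -0.15, limma adjusted p = 0.65), and was called lower after quantile normalization (-0.58, limma adjusted p = 0.036), and TUBB6 changed by -0.09 without passing.

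**Figure D3:**
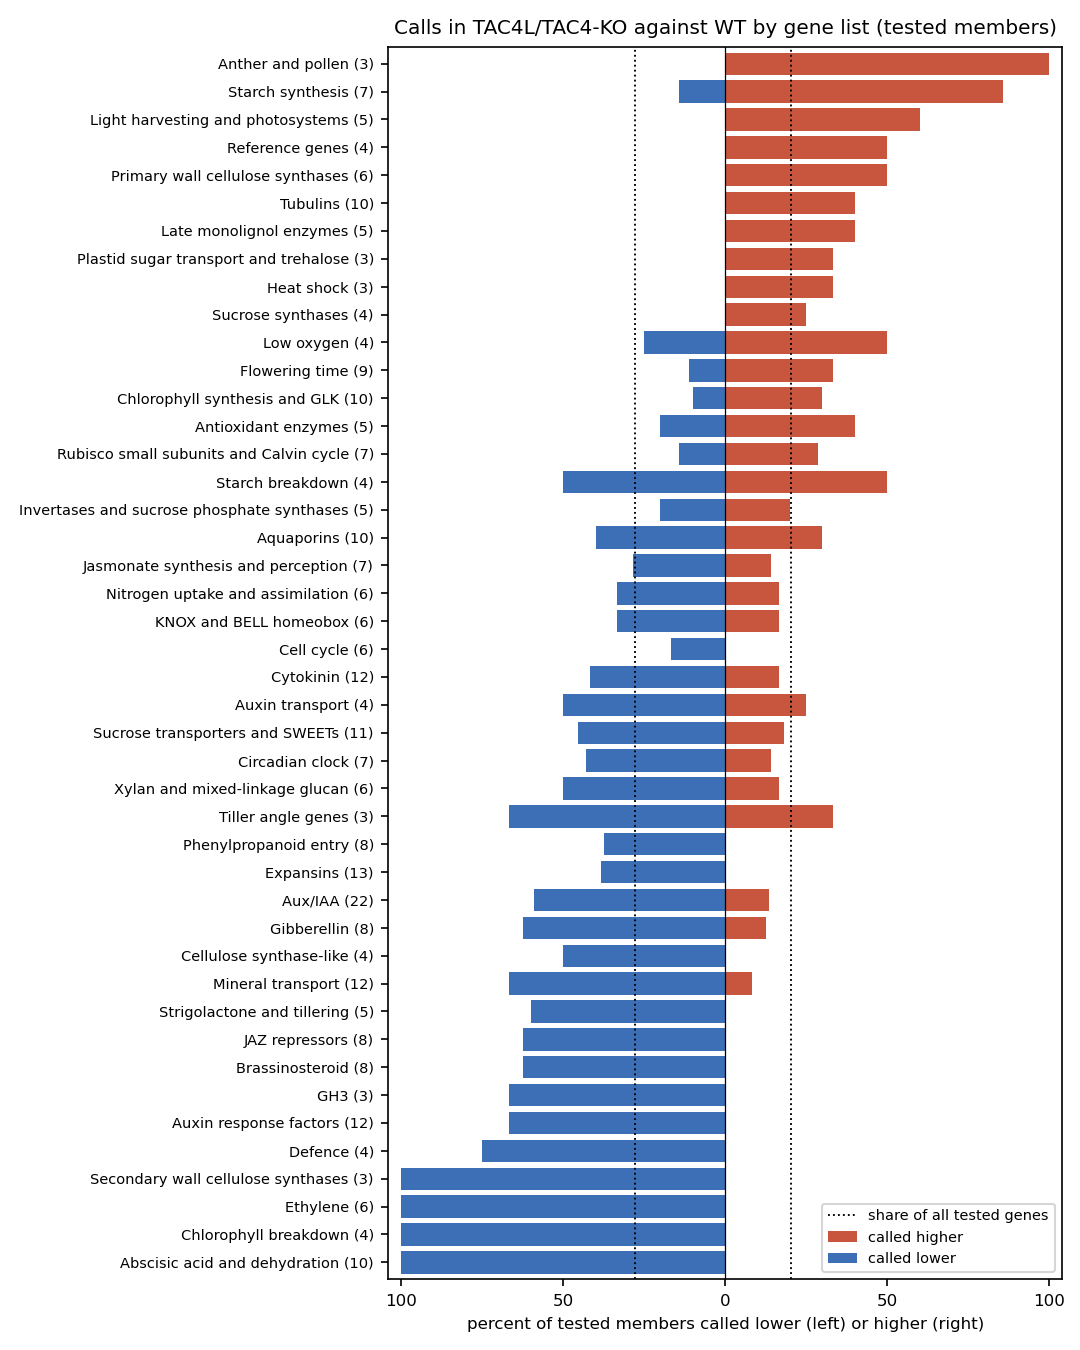
Percent of tested members called lower (left, blue) and higher (right, red) in double-KO against WT for each gene list with at least 3 tested members, with the number tested in brackets, ordered by the difference. Dotted lines mark the shares of all tested genes, 27.8% lower and 20.3% higher.

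Over all 49 lists, 423 genes were measured and 309 tested. Of the tested members 61 were higher, 129 lower and 119 not called, so 61.5% were called against 48.2% of all tested genes. The lists were drawn up with earlier results of these libraries known, and the larger share is not evidence about them. The median change was -0.35 among the members and -0.10 among all tested genes. Counts of calls in any list are to be read beside the shares of all tested genes, 20.3% higher and 27.8% lower. Where a list had 0 limma calls in one direction, its count at an unadjusted p under 0.05 in that direction was also 0, except for 1 sucrose synthase (lower) and 1 brassinosteroid gene (higher).

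The starch synthesis genes that could be tested rose with 1 exception. Of 7 tested, 6 rose and 1 fell, with a median log2 change of 3.01. Most genes drawn up for this list were not looked at, because their symbols were not found in the RefSeq gene annotation. Among them were AGPL1, AGPS1, GBSSII and BEIIb. AGPS2, a small subunit of ADP-glucose pyrophosphorylase, stood at 2.73, 3.27 and 2.15 FPKM in WT and 39.4, 43.9 and 46.1 in double-KO (log2 change 3.58 with an SE of 0.24, limma adjusted p = 5e-06). The starch synthase SSI stood at 9.54, 9.33 and 8.19 FPKM in WT and 152, 142 and 122 in double-KO (log2 change 3.8 with an SE of 0.34, limma adjusted p = 1.9e-05) and SSIIb at 46.7, 38.1 and 29.6 FPKM in WT and 440.5, 510.0 and 379.8 in double-KO (log2 change 3.52 with an SE of 0.31, limma adjusted p = 1.9e-05). The branching enzyme BEI stood at 42.6, 43.5 and 44.1 FPKM in WT and 345, 404 and 326 in double-KO (log2 change 3.01 with an SE of 0.23, limma adjusted p = 8.2e-06). For these 4 genes the libraries within a group lay close together and the lowest double-KO library was many times the highest WT library. SSIIc rose by 0.58, not called without double-KO replicate 1, 2 or 3 or without WT replicate 1 or 3 (0.51 to 0.70 with any 1 library left out). The debranching enzyme ISA1 rose by 0.67, not called without double-KO replicate 2 (0.62 to 0.72 with any 1 library left out). SSIIa, a minor form here, fell, at 0.819, 2.76 and 5.06 FPKM in WT and 0.0758, 0.172 and 0.238 in double-KO (log2 change -1.58 with an SE of 0.37, limma adjusted p = 0.0044, and -1.17 without WT replicate 3). Against the single lines AGPS2 changed by 1.57 against TAC4-KO (limma adjusted p = 0.0018) and 2.87 against TAC4L-KO (limma adjusted p = 2.6e-05), BEI by 1.84 against TAC4-KO (limma adjusted p = 0.00063) and 2.78 against TAC4L-KO (limma adjusted p = 2.1e-05) and SSIIb by 0.67 against TAC4-KO (limma adjusted p = 0.18) and 2.64 against TAC4L-KO (limma adjusted p = 0.00017). Summed FPKM of the 7 genes ran from 127 to 143 in WT, 145 to 269 in TAC4L-KO, 424 to 715 in TAC4-KO and 938 to 1167 in double-KO.

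The 4 tested starch breakdown genes went in both directions. Others drawn up for this list, among them GWD1, SEX4 and the beta-amylase genes, were not looked at, because their symbols were not found in RefSeq. The disproportionating enzymes DPE1 of the plastid and DPE2 of the cytosol, which process the maltose and short glucans released from transitory starch, both rose. DPE1 stood at 97.4, 124 and 109 FPKM in WT and 511, 493 and 460.4 in double-KO (log2 change 2.14 with an SE of 0.21, limma adjusted p = 3e-05) and DPE2 at 5.93, 15.6 and 12.4 FPKM in WT and 71.0, 82.5 and 70.4 in double-KO (log2 change 2.70 with an SE of 0.31, limma adjusted p = 6.3e-05). The alpha-amylase genes AMY2A, at 15.6, 13.5 and 4.97 FPKM in WT and 0.964, 0.619 and 0.929 in double-KO (log2 change -2.63 with an SE of 0.48, limma adjusted p = 0.001), and AMY3D, at 8.35, 6.51 and 2.63 FPKM in WT and 0, 0.0555 and 0.0226 in double-KO (log2 change -2.63 with an SE of 0.76, limma adjusted p = 0.014), both fell. The other 4 alpha-amylase genes looked at were at or near 0 in all 6 libraries. TPT, which exports triose phosphate from the chloroplast, rose, at 119, 119.5 and 99.9 FPKM in WT and 225, 242 and 287 in double-KO (log2 change 1.15 with an SE of 0.20, limma adjusted p = 0.00087), and the hexokinases HXK5 and HXK6 did not pass (0.44 and 0.06).

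**Figure D4:**
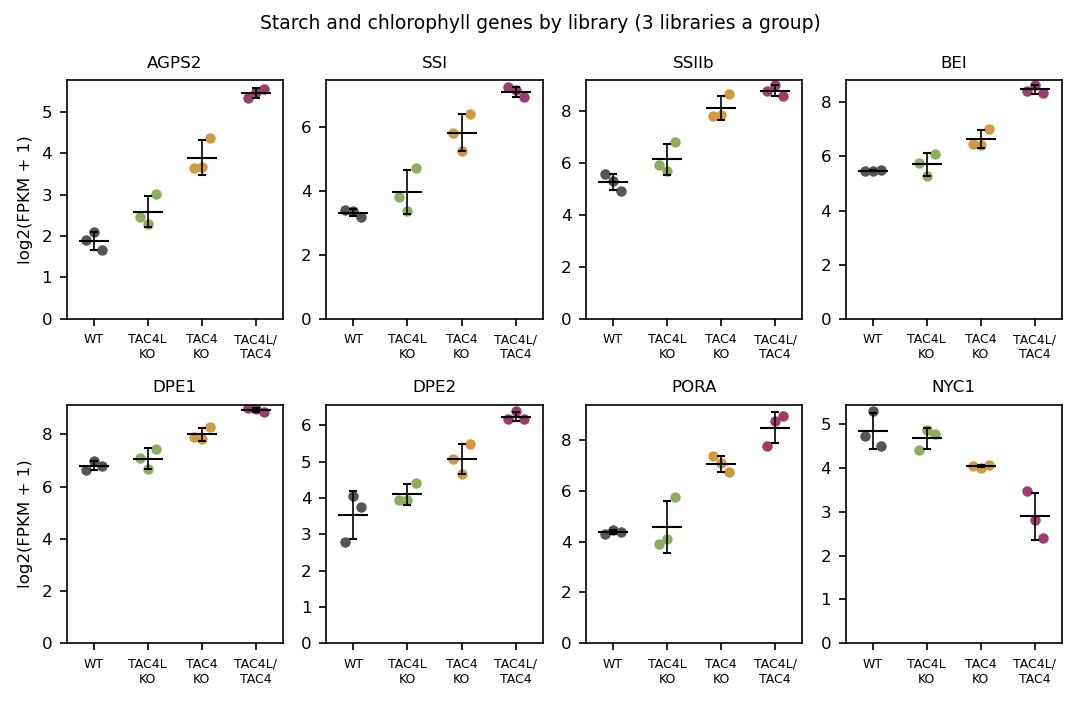
Log2(FPKM + 1) of 4 starch synthesis genes, 2 starch breakdown genes and 2 chlorophyll genes in the 4 groups, each point a library, with the mean and SD of 3 libraries. The 6 starch genes and PORA are highest in double-KO, and NYC1 is lowest there.

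Sugar export genes changed in both directions. SWEET proteins let sugars leave the cell and SUT proteins load sucrose into the phloem. Of 11 tested members 2 rose and 5 fell, against 20.3% higher and 27.8% lower among all tested genes. SWEET13 (LOC_Os12g29220), a sucrose exporter, stood at 326, 275 and 139 FPKM in WT and 16.7, 19.3 and 11.7 in double-KO (log2 change -3.81 with an SE of 0.43, limma adjusted p = 6e-05). SWEET1a stood at 746, 1061 and 497 FPKM in WT and 111, 147 and 206 in double-KO (log2 change -2.28 with an SE of 0.40, limma adjusted p = 0.00079) and SWEET4 at 999, 594 and 692 FPKM in WT and 143, 271 and 191 in double-KO (log2 change -1.93 with an SE of 0.45, limma adjusted p = 0.0046). These 3 were abundant in WT and did not overlap between groups. SWEET2b, at 4.45, 3.91 and 2.86 FPKM in WT and 21.3, 39.8 and 13.9 in double-KO (log2 change 2.35 with an SE of 0.41, limma adjusted p = 0.00087), and SWEET3a (log2 change 1.51 with an SE of 0.29, limma adjusted p = 0.0014) rose from low levels. SUT2, the sucrose transporter of the vacuole membrane, fell (log2 change -1.12 with an SE of 0.16, limma adjusted p = 0.00024), whereas SUT1 did not pass (log2 change -0.11, limma adjusted p = 0.71). Against TAC4L-KO, SWEET13 and SWEET1a differed by -3.07 and -2.01 on the log2 scale, and against TAC4-KO by -1.64 and -1.39, all past the test. SWEET4 was called against neither single line, at -0.71 against TAC4-KO (limma adjusted p = 0.33) and -0.63 against TAC4L-KO (limma adjusted p = 0.3).

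Among enzymes of sucrose use, the cell wall invertase CIN1 stood at 106, 105 and 594 FPKM in WT and 6.30, 11.9 and 19.7 in double-KO (log2 change -3.92 with an SE of 0.71, limma adjusted p = 0.00098, and -3.10 without WT replicate 3). Its groups did not overlap, and WT replicate 3 was the highest library. SUS1, a sucrose synthase of the phloem, rose (log2 change 1.75 with an SE of 0.51, limma adjusted p = 0.014), not called without double-KO replicate 2 or 3 or without WT replicate 2 (1.44 to 2.31 with any 1 library left out). SUS2, SUS4 and SUS5 did not pass (-0.14, 0.06 and -0.60). SPS2, a sucrose phosphate synthase, rose by 0.56, not called without double-KO replicate 2 (0.40 to 0.69 with any 1 library left out), and CIN4, SPS6 and SPS8 did not pass (0.61, -0.23 and -0.28).

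Genes of green tissue rose in part. Of 5 tested light-harvesting and photosystem genes, 3 rose and 0 fell. Most genes drawn up for this list, among them Lhca1, PsbO and PsaD, were not looked at, because their symbols were not found in RefSeq. Lhcb2 stood at 12.2, 8.70 and 5.29 FPKM in WT and 40.5, 65.5 and 49.4 in double-KO (log2 change 2.48 with an SE of 0.34, limma adjusted p = 0.00018) and PsbQ, of the oxygen-evolving complex, at 427, 509 and 259.8 FPKM in WT and 946, 768 and 720.4 in double-KO (log2 change 1.07 with an SE of 0.26, limma adjusted p = 0.006). The minor Lhcb1 gene LOC_Os09g17740 rose (log2 change 2.56 with an SE of 0.76, limma adjusted p = 0.016), not called without double-KO replicate 2 or 3 (2.14 to 3.21 with any 1 library left out), and the major gene LOC_Os01g41710 and PsaH missed the threshold (0.91 and 0.62). Of 7 tested Rubisco and Calvin cycle genes, 2 rose and 1 fell, against 20.3% higher and 27.8% lower among all tested genes. The fructose-bisphosphate aldolase gene FBA rose (log2 change 1.01 with an SE of 0.27, limma adjusted p = 0.0088), not called after quantile normalization. The main Rubisco small subunit gene LOC_Os12g19381 fell, at 6680.0, 6372 and 3139 FPKM in WT and 3068, 3006 and 1836 in double-KO (log2 change -0.99 with an SE of 0.30, limma adjusted p = 0.018), not called without double-KO replicate 3 or without WT replicate 1 or 2 (-1.34 to -0.75 with any 1 library left out). Summed FPKM of these 12 markers of green tissue were not all on one side: the light-harvesting list ran from 758 to 1566 in WT and 1953 to 2400 in double-KO, and the Rubisco and Calvin cycle list from 4711 to 9437 in WT and 4979 to 7458 in double-KO. Their part in the starch results was not tested.

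Chlorophyll synthesis genes rose in part, and the tested breakdown genes fell. PORA, a light-dependent protochlorophyllide reductase, stood at 18.8, 20.8 and 19.8 FPKM in WT and 218, 428 and 486 in double-KO (log2 change 4.11 with an SE of 0.43, limma adjusted p = 4.1e-05), and every double-KO library was over 10 times every WT library. PORB and CHLG, the chlorophyll synthase, rose by 1.11 and 1.01. HEMA1 did not pass (log2 change -0.03, limma adjusted p = 0.92). In all, 3 of 10 tested genes of the synthesis list rose and 1 fell, against 20.3% higher and 27.8% lower among all tested genes. All 4 tested breakdown genes fell, with no overlap between groups. NYC1, which starts the removal of chlorophyll b, stood at 25.5, 38.1 and 21.6 FPKM in WT and 10.1, 5.97 and 4.31 in double-KO (log2 change -1.95 with an SE of 0.27, limma adjusted p = 0.0002). SGR, the stay-green protein, stood at 25.1, 18.9 and 25.2 FPKM in WT and 11.6, 7.60 and 3.46 in double-KO (log2 change -1.61 with an SE of 0.32, limma adjusted p = 0.0017), and NOL and RCCR1 fell by 1.02 and 1.04 on the log2 scale. Against the single lines NYC1 changed by -1.15 against TAC4-KO (limma adjusted p = 0.016) and -1.78 against TAC4L-KO (limma adjusted p = 0.00064).

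Abscisic acid (ABA) and dehydration genes fell throughout the list. ABA is the hormone of water deficit, and all 10 tested members were lower, with a median log2 change of -2.62. NCED3, the rate-limiting enzyme of ABA synthesis, stood at 99.2, 19.6 and 14.2 FPKM in WT and 0.838, 0.519 and 0.170 in double-KO (log2 change -4.41 with an SE of 0.59, limma adjusted p = 0.00016). LIP9, a dehydrin, stood at 1729, 1045 and 1001 FPKM in WT and 34.5, 45.8 and 39.6 in double-KO (log2 change -4.90 with an SE of 0.56, limma adjusted p = 6.4e-05). Every WT library was over 10 times every double-KO library for both genes. The ABA-degrading ABA8ox1 stood at 21.2, 6.45 and 7.17 FPKM in WT and 0.514, 1.05 and 0.692 in double-KO (log2 change -2.67 with an SE of 0.55, limma adjusted p = 0.0021), the phosphatase PP2C30 at 60.4, 28.2 and 26.4 FPKM in WT and 5.04, 2.98 and 2.45 in double-KO (log2 change -3.07 with an SE of 0.36, limma adjusted p = 8e-05) and the sugar-binding SALT at 27.1, 18.8 and 40.6 FPKM in WT and 11.3, 2.20 and 0.463 in double-KO (log2 change -2.88 with an SE of 0.64, limma adjusted p = 0.0033). WT replicate 1 was the highest library for NCED3, ABA8ox1 and LIP9, and the list median without it was -2.09. Of the other 5 members, the changes ran from -2.56 to -0.67. The calls of 2 of them, DREB1A and P5CS1, were lost with single libraries left out. The remaining 6 genes of the list, among them RAB16A to RAB16D and LEA3, were under 2 FPKM in all 6 libraries. Against TAC4-KO 3 of the 10 were lower and against TAC4L-KO 6, with LIP9 at -3.23 against TAC4-KO (limma adjusted p = 0.0033) and -4.39 against TAC4L-KO (limma adjusted p = 0.00024).

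Ethylene genes fell likewise, 6 of 6 tested, with a median of -1.71. ACS1 makes the ethylene precursor and ACO1 converts it. ACS1 stood at 91.8, 22.1 and 9.14 FPKM in WT and 0.131, 0 and 0.0328 in double-KO (log2 change -4.73 with an SE of 0.91, limma adjusted p = 0.0015) and ACO1 at 44.3, 17.3 and 28.5 FPKM in WT and 0.333, 0.406 and 0.177 in double-KO (log2 change -4.48 with an SE of 0.55, limma adjusted p = 0.0001). The receptor ETR2 stood at 43.6, 50.1 and 64.3 FPKM in WT and 8.48, 8.70 and 13.4 in double-KO (log2 change -2.27 with an SE of 0.27, limma adjusted p = 8.3e-05). Downstream, EIN2 and EIL1 fell by 1.14 and 0.82 on the log2 scale. The groups of these 5 genes did not overlap. The receptor ERS1 fell by 0.38 with tight replicates, not called under either other scaling or without double-KO replicate 1 or 2 or without WT replicate 3 (-0.41 to -0.36 with any 1 library left out). Against TAC4-KO only ETR2 was called among the 6, at -1.12 (limma adjusted p = 0.018). Against TAC4L-KO 4 of the 6 were called lower, with a list median of -1.02: ACO1 at -2.81, EIN2 at -1.12, ETR2 at -0.92 and EIL1 at -0.75.

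JAZ and defence genes fell in part, and several were uneven in WT. Of 8 tested JAZ repressors, which jasmonate itself induces, 0 rose and 5 fell. TIFY11d stood at 61.2, 66 and 155 FPKM in WT and 1.01, 1.56 and 1.78 in double-KO (log2 change -5.16 with an SE of 0.92, limma adjusted p = 0.00094, and -4.73 without WT replicate 3), and TIFY11c fell by 4.07 on the log2 scale and TIFY11e fell by 3.28 (-3.06 and -2.84 without that library). WT replicate 3 was the highest library for all 3, and the median of the list was -1.80 with it and -1.57 without it. TIFY11b fell by 2.37, not called without double-KO replicate 1 or 3 or without WT replicate 1 or 3 (-2.68 to -2.18 with any 1 library left out). TIFY10b fell by 1.23, not called after scaling by the median of ratios or without double-KO replicate 1 or 3 or without WT replicate 1 or 3 (-1.49 to -0.88 with any 1 library left out). Of 7 tested genes of jasmonate synthesis and perception 1 rose and 2 fell, near the shares of all tested genes (20.3% higher and 27.8% lower). AOS1, which commits the pathway to jasmonate, stood at 44.2, 29.8 and 125 FPKM in WT and 7.22, 13.1 and 7.50 in double-KO (log2 change -2.49 with an SE of 0.58, limma adjusted p = 0.0046, and -1.91 without WT replicate 3). OPR7, a later synthesis enzyme, fell by 0.83, not called without double-KO replicate 1 (-1.01 to -0.64 with any 1 library left out), the co-receptor COI1a rose (log2 change 1.04 with an SE of 0.21, limma adjusted p = 0.0021) and COI1b did not pass (-0.22). Of 4 defence genes 3 fell: the transcription factor WRKY71 stood at 166, 118 and 144 FPKM in WT and 1.55, 4.20 and 2.92 in double-KO (log2 change -5.25 with an SE of 0.85, limma adjusted p = 0.00051), the salicylic acid co-activator NPR1 at 15.8, 19.2 and 25.3 FPKM in WT and 2.13, 1.82 and 3.5 in double-KO (log2 change -2.60 with an SE of 0.36, limma adjusted p = 0.00021) and the chitinase CHT1 at 56.9, 69.1 and 202 FPKM in WT and 12.7, 18.6 and 26.5 in double-KO (log2 change -2.27 with an SE of 0.54, limma adjusted p = 0.0053, and -1.71 without WT replicate 3). PBZ1 did not pass (0.02). Against TAC4-KO none of the 12 tested JAZ and defence genes was called by limma, with adjusted p between 0.31 and 0.89, and 0 had an unadjusted p under 0.05. Against TAC4L-KO 2 of the 12 were called, both lower: WRKY71 at -2.53 (limma adjusted p = 0.037) and NPR1 at -1.42 (limma adjusted p = 0.011).

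Auxin genes fell at several steps. PIN proteins carry auxin out of cells, and PIN1b (LOC_Os02g50960) stood at 62.3, 44.6 and 75.6 FPKM in WT and 17.3, 18.8 and 10.7 in double-KO (log2 change -1.90 with an SE of 0.26, limma adjusted p = 0.00018). PIN1a stood at 40.9, 45.8 and 56.3 FPKM in WT and 20.4, 16.8 and 18.8 in double-KO (log2 change -1.30 with an SE of 0.43, limma adjusted p = 0.027), with no overlap, but not called without double-KO replicate 1, 2 or 3 or without WT replicate 2 or 3 (-1.40 to -1.17 with any 1 library left out). PIN10a rose, at 1.44, 1.27 and 0.868 FPKM in WT and 4.13, 7.49 and 5.83 in double-KO (log2 change 1.62 with an SE of 0.27, limma adjusted p = 0.00065), and PIN5b did not pass (0.68). In the single lines PIN1b held 61.8, 92.8 and 59.4 FPKM in TAC4-KO and 88.6, 74.0 and 74.5 in TAC4L-KO, within or above the WT range, and double-KO differed by -2.13 against TAC4-KO (limma adjusted p = 0.0006) and -2.30 against TAC4L-KO (limma adjusted p = 0.00013). Of 22 tested Aux/IAA repressors, many of which auxin induces and whose breakdown frees the response factors, 3 rose and 13 fell. IAA30 stood at 64.5, 51.7 and 64.9 FPKM in WT and 8.87, 6.15 and 4.29 in double-KO (log2 change -3.08 with an SE of 0.27, limma adjusted p = 1.7e-05), next to IAA31 on the chromosome (-2.88). IAA6, IAA12 and IAA20 fell by 2.52, 2.74 and 2.62 on the log2 scale, IAA21 rose by 1.04 and IAA17 did not pass (-0.35). Against each single line 12 of the 22 were lower and 0 higher.

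Auxin response factors (ARFs) fell as well, 8 of 12 tested, with 0 higher. After scaling by the median of ratios 7 were lower and 1 higher, and after quantile normalization 5 were lower and 1 higher, the rise being ARF12 both times (0.66 and 0.71, against 0.56 uncalled on the deposited scale). ARF17 stood at 96.3, 137 and 109 FPKM in WT and 32.7, 19.7 and 29.3 in double-KO (log2 change -2.04 with an SE of 0.31, limma adjusted p = 0.00035) and ARF1 at 53.8, 52.7 and 48.7 FPKM in WT and 26.4, 22.5 and 12.7 in double-KO (log2 change -1.35 with an SE of 0.24, limma adjusted p = 0.00082). ARF8 fell by 0.90. ARF22 fell by 0.79, not called without double-KO replicate 3 or without WT replicate 1 (-0.99 to -0.62 with any 1 library left out), and ARF19 by 1.07, not called under either other scaling or without double-KO replicate 1, 2 or 3 or without WT replicate 2 or 3 (-1.34 to -0.72 with any 1 library left out). The most abundant uncalled member, ARF2, stood at 48.7, 65.9 and 43.3 FPKM in WT and 51.9, 58.8 and 47.2 in double-KO (log2 change 0.02, limma adjusted p = 0.95). With 1 library left out, between 3 and 7 of the 12 were called lower, the fewest without double-KO replicate 3. GH3 enzymes conjugate auxin, and GH3.7 and GH3.6 fell by 0.65 and 0.98, neither called after quantile normalization. GH3.7 was also not called without double-KO replicate 3 or without WT replicate 2 (-0.79 to -0.47 with any 1 library left out), and GH3.6 without double-KO replicate 1, 2 or 3 or without WT replicate 3 (-1.30 to -0.45 with any 1 library left out); GH3.8 did not pass (-1.24).

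Of the 3 tested tiller angle genes, LAZY1, needed for the shoot to bend against gravity, stood at 6.07, 6.06 and 6.16 FPKM in WT and 0.0406, 0.0496 and 0.121 in double-KO (log2 change -2.73 with an SE of 0.23, limma adjusted p = 1.4e-05). WOX11, a homeobox gene of crown roots that also acts in the tiller angle pathway, stood at 5.15, 2.54 and 6.87 FPKM in WT and 0.0457, 0.0279 and 0.0456 in double-KO (log2 change -2.42 with an SE of 0.32, limma adjusted p = 0.00015). TAC1, which promotes a wide tiller angle, rose, at 0.722, 1.18 and 0.608 FPKM in WT and 5.10, 4.38 and 3.92 in double-KO (log2 change 1.58 with an SE of 0.25, limma adjusted p = 0.00046). The groups did not overlap for any of them. Against TAC4-KO 0 of the 3 were called by limma (adjusted p = 0.083, 0.51 and 0.26 in that order, 1 at an unadjusted p under 0.05), and against TAC4L-KO all 3 were.

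Cytokinin genes fell in part, with falls in both activation and removal. CKX enzymes degrade cytokinin and LOG activates it. CKX11 stood at 45.8, 58.9 and 48.5 FPKM in WT and 11.7, 8.77 and 11.9 in double-KO (log2 change -2.14 with an SE of 0.23, limma adjusted p = 4.2e-05), CKX4 at 84.9, 35.4 and 30.6 FPKM in WT and 7.33, 4.99 and 4.44 in double-KO (log2 change -2.84 with an SE of 0.61, limma adjusted p = 0.0028) and LOG at 38.1, 26.5 and 30.0 FPKM in WT and 10.5, 9.19 and 9.10 in double-KO (log2 change -1.61 with an SE of 0.31, limma adjusted p = 0.0015). CKX2 fell by 1.86 and CKX5 by 1.64, the latter not called without double-KO replicate 1 or 3 or without WT replicate 1, 2 or 3 (-1.95 to -1.43 with any 1 library left out). The response regulator RR2 rose, at 24.5, 26.1 and 26.5 FPKM in WT and 105, 51.0 and 52.6 in double-KO (log2 change 1.32 with an SE of 0.30, limma adjusted p = 0.0041), and RR4 did not pass (0.68). In all, 2 of 12 rose and 5 fell, against 20.3% higher and 27.8% lower among all tested genes. Of 8 tested brassinosteroid genes 0 rose and 5 fell on the deposited scale: the receptor BRI1 (log2 change -1.06 with an SE of 0.26, limma adjusted p = 0.0065), the transcription factor BZR1 (log2 change -1.39 with an SE of 0.23, limma adjusted p = 0.00051), its inhibitory kinase GSK2 (log2 change -1.22 with an SE of 0.19, limma adjusted p = 0.0004), the synthesis gene BRD1 and the helix-loop-helix gene BU1. BU1 stood at 6.0, 3.08 and 2.52 FPKM in WT and was listed at 0 in all double-KO libraries. BRD1 fell by 0.88, not called after quantile normalization or without double-KO replicate 1 or 3 or without WT replicate 2 (-1.1 to -0.54 with any 1 library left out). BAK1, a co-receptor for brassinosteroid, was not called on the deposited scale (0.38) but was called higher under both other scalings (0.48 and 0.54). The list was also low against the single lines, with 4 members lower than in TAC4-KO and 6 lower than in TAC4L-KO.

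Of 8 tested gibberellin genes 1 rose and 5 fell. CPS1, the first step of synthesis, stood at 6.51, 7.58 and 4.77 FPKM in WT and 0.529, 1.70 and 0.264 in double-KO (log2 change -2.05 with an SE of 0.34, limma adjusted p = 0.0006), and the receptor GID1 at 138, 150.4 and 114 FPKM in WT and 51.8, 50.4 and 63.5 in double-KO (log2 change -1.26 with an SE of 0.18, limma adjusted p = 0.00028). KO2 and KAO fell by 0.74 and 1.24, not called without double-KO replicate 1 or without WT replicate 2 or 3 (-0.96 to -0.60 with any 1 library left out) and without WT replicate 2 (-1.56 to -0.89 with any 1 library left out) respectively. SD1, the semi-dwarf gene of gibberellin synthesis, rose from low levels (log2 change 0.88 with an SE of 0.24, limma adjusted p = 0.0097), and the repressor SLR1 did not pass (log2 change -0.44, limma adjusted p = 0.079). Of 5 strigolactone and tillering genes 3 fell. The receptor D14 stood at 318, 469.5 and 283 FPKM in WT and 106, 92.8 and 108 in double-KO (log2 change -1.76 with an SE of 0.32, limma adjusted p = 0.001). D10, a synthesis gene, fell by 1.14, not called after quantile normalization or without double-KO replicate 1 or 3 or without WT replicate 1 (-1.47 to -0.65 with any 1 library left out). D3, the F-box partner of D14, fell by 0.61, not called under either other scaling or without double-KO replicate 1 or 2 or without WT replicate 2 or 3 (-0.69 to -0.55 with any 1 library left out). D17 and IPA1 did not pass (-0.19 and -0.34).

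**Figure D5:**
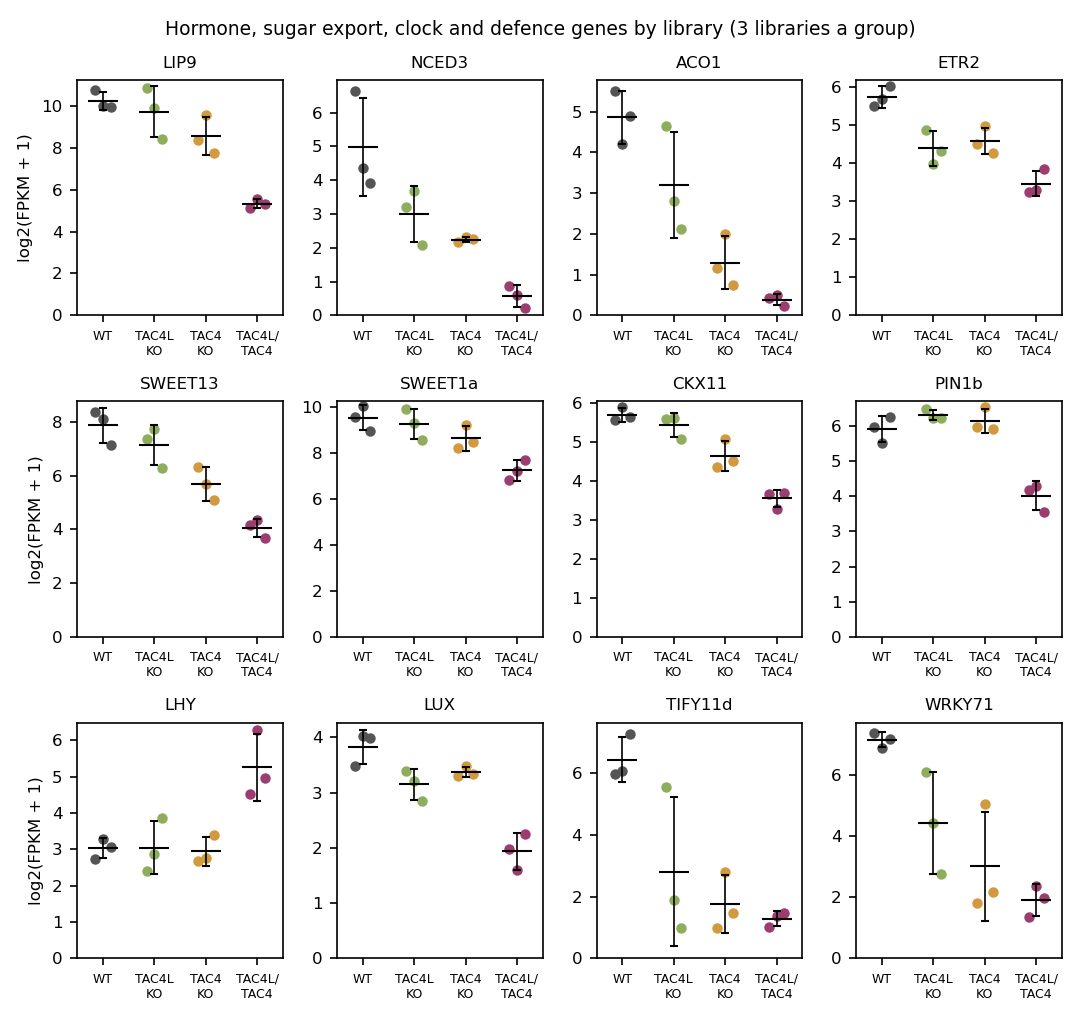
Log2(FPKM + 1) of 12 hormone, sugar export, clock and defence genes in the 4 groups, each point a library, with the mean and SD of 3 libraries. LIP9, SWEET13, CKX11, PIN1b and LUX are lowest in double-KO and LHY is highest there, whereas for TIFY11d and WRKY71 the single-line libraries spread from about the double-KO level upwards and stay below every WT library.

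Some clock genes differed too, and the sources used here give no time of day of harvest. LHY, a morning gene, stood at 5.66, 8.80 and 7.35 FPKM in WT and 22.0, 76.7 and 30.1 in double-KO (log2 change 2.22 with an SE of 0.44, limma adjusted p = 0.0019), and LUX, an evening gene, at 10.1, 15.2 and 14.9 FPKM in WT and 2.92, 2.01 and 3.78 in double-KO (log2 change -1.89 with an SE of 0.22, limma adjusted p = 7.5e-05), neither with overlap. Each also differed from both single lines, LHY by 2.31 against TAC4-KO (limma adjusted p = 0.0058) and 2.21 against TAC4L-KO (limma adjusted p = 0.0032) and LUX by -1.43 against TAC4-KO (limma adjusted p = 0.0019) and -1.21 against TAC4L-KO (limma adjusted p = 0.0019). GI fell by 0.82, not called without double-KO replicate 1 or 3 or without WT replicate 1 or 2 (-1.1 to -0.58 with any 1 library left out). In all, 1 of 7 rose and 3 fell, against 20.3% higher and 27.8% lower among all tested genes. Among flowering genes the SOC1-like MADS50 rose, at 3.68, 4.11 and 3.46 FPKM in WT and 10.8, 10.4 and 9.17 in double-KO (log2 change 1.23 with an SE of 0.19, limma adjusted p = 0.00036), and MADS56 fell, at 47.9, 49.0 and 41.8 FPKM in WT and 24.8, 21.4 and 13.7 in double-KO (log2 change -1.21 with an SE of 0.20, limma adjusted p = 0.00067). MADS14, of the floral meristem identity group, rose (log2 change 0.82 with an SE of 0.20, limma adjusted p = 0.0058), and MADS18 rose by 0.76, not called without double-KO replicate 1 or 2 or without WT replicate 3 (0.50 to 0.90 with any 1 library left out). MADS55 did not pass (0.06), and in all 3 of 9 rose and 1 fell, beside the same 20.3% and 27.8% of all tested genes.

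Homeobox genes changed in both directions, and 1 cell cycle gene fell. KNOX and BELL homeobox genes keep meristems and shape internodes. Of 6 tested, 1 rose and 2 fell, near the shares of all tested genes (20.3% higher and 27.8% lower). OSH43 stood at 7.81, 10.6 and 19.9 FPKM in WT and 0.0352, 0.161 and 0.140 in double-KO (log2 change -3.53 with an SE of 0.34, limma adjusted p = 2.7e-05, and -3.18 without WT replicate 3), without overlap. OSH15, needed for internode elongation, stood at 184, 271 and 204 FPKM in WT and 143, 134 and 92.4 in double-KO (log2 change -0.83 with an SE of 0.24, limma adjusted p = 0.014), not called without double-KO replicate 3 or without WT replicate 2 (-0.95 to -0.64 with any 1 library left out), and OSH71 rose by 0.74, not called without double-KO replicate 2 (0.50 to 0.90 with any 1 library left out). OSH1, HOS59 and OSH45 did not pass (-0.06, -0.19 and 0.16). Of 6 tested cell cycle genes only CDKA1 was called, lower (log2 change -0.93 with an SE of 0.20, limma adjusted p = 0.0024). CDKA2, CDKB1;1, CDKB2;1, PCNA and MCM2 had changes of -0.63, 0.18, -0.10, 0.38 and 0.28. The other 8 cell cycle genes averaged under 1 FPKM over the 6 libraries.

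Water channels changed in both directions. Of 10 tested aquaporins 3 rose and 4 fell, against 20.3% higher and 27.8% lower among all tested genes. The vacuolar TIP1;1 stood at 51.3, 47.1 and 50.1 FPKM in WT and 132, 159 and 382 in double-KO (log2 change 1.99 with an SE of 0.32, limma adjusted p = 0.00046), and it also stood above both single lines, by 2.75 against TAC4-KO (limma adjusted p = 0.00044) and 2.33 against TAC4L-KO (limma adjusted p = 0.00035). The plasma membrane PIP1;2 stood at 731, 587 and 487 FPKM in WT and 338, 254 and 372 in double-KO (log2 change -0.90 with an SE of 0.24, limma adjusted p = 0.0087), without overlap. Against the single lines PIP1;2 was higher than in TAC4-KO and not called against TAC4L-KO, at 1.11 against TAC4-KO (limma adjusted p = 0.0096) and -0.62 against TAC4L-KO (limma adjusted p = 0.063). Of the 10 aquaporins 5 were called higher and 0 lower against TAC4-KO, and 1 higher and 1 lower against TAC4L-KO. PIP1;1 and TIP4;1, the most abundant, did not pass (-0.02 and 0.17). PIP2;6 rose by 1.20, not called without double-KO replicate 1 or 3 or without WT replicate 3 (0.93 to 1.44 with any 1 library left out). PIP2;4 fell by 1.1, not called without WT replicate 1 or 2 (-1.49 to -0.87 with any 1 library left out), and TIP2;2 by 1.32, not called without double-KO replicate 2 or without WT replicate 2 (-1.69 to -0.84 with any 1 library left out). Both tested silicon transporters fell: Lsi1 stood at 29.6, 25.6 and 30.9 FPKM in WT and 5.20, 6.02 and 5.10 in double-KO (log2 change -2.20 with an SE of 0.45, limma adjusted p = 0.0022) and Lsi6 at 56.2, 49.0 and 41.5 FPKM in WT and 9.93, 14.1 and 18.8 in double-KO (log2 change -1.74 with an SE of 0.41, limma adjusted p = 0.0045). Silica in the epidermis is known to stiffen rice stems.

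Mineral transport genes fell for the most part, 8 of 12 tested against 1 that rose, with a median of -1.62 (-1.33 without WT replicate 3). The potassium transporter HAK1 stood at 44.4, 84.0 and 578 FPKM in WT and 1.33, 0.989 and 10.3 in double-KO (log2 change -5.13 with an SE of 1.1, limma adjusted p = 0.0028, and -4.05 without WT replicate 3), and the phosphate transporter PT8 at 218, 183 and 552 FPKM in WT and 31.6, 32.9 and 40.2 in double-KO (log2 change -2.98 with an SE of 0.56, limma adjusted p = 0.0013, and -2.49). WT replicate 3 was the highest library for both, and neither overlapped between groups. The potassium channel AKT1 and the metal transporter YSL16 fell by 2.53 and 1.93 (-1.98 and -1.38 without WT replicate 3). YSL2, which moves iron and manganese chelates, rose, at 0.796, 1.22 and 2.03 FPKM in WT and 7.76, 13.9 and 6.14 in double-KO (log2 change 2.09 with an SE of 0.30, limma adjusted p = 0.00025). Of 6 tested nitrogen genes 1 rose and 2 fell, near the shares of all tested genes (20.3% higher and 27.8% lower). The plastid glutamine synthetase GS2 stood at 81.3, 94.8 and 70.1 FPKM in WT and 172, 171 and 122 in double-KO (log2 change 0.90 with an SE of 0.19, limma adjusted p = 0.0025) and the cytosolic form GS1;3 at 7.39, 9.14 and 10.8 FPKM in WT and 0.227, 1.32 and 1.17 in double-KO (log2 change -2.45 with an SE of 0.47, limma adjusted p = 0.0014). The ammonium transporter AMT1;1 fell by 1.78, not called after quantile normalization or without double-KO replicate 1 or 2 or without WT replicate 3 (-2.17 to -1.33 with any 1 library left out). GS1;1, GS1;2 and Fd-GOGAT did not pass (0.19, -0.25 and 0.03).

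Among stress enzymes, the ascorbate peroxidase APX1 stood at 592, 597 and 783 FPKM in WT and 240.3, 193 and 237 in double-KO (log2 change -1.55 with an SE of 0.17, limma adjusted p = 5.6e-05), and its relative APX2 rose (log2 change 0.83 with an SE of 0.21, limma adjusted p = 0.0065). The superoxide dismutase SODCC1 rose by 0.71, and CATB and SODCC2 did not pass (0.29 and 0.33). Of 4 genes of low oxygen metabolism, the alcohol dehydrogenase ADH2 rose, at 3.79, 4.82 and 6.06 FPKM in WT and 21.4, 13.0 and 20.1 in double-KO (log2 change 1.69 with an SE of 0.33, limma adjusted p = 0.0017), and ADH1, the abundant form, did not pass (log2 change 0.21, limma adjusted p = 0.67). The pyruvate decarboxylase PDC1 stood at 3.6, 4.48 and 37.6 FPKM in WT and 0.0178, 0.196 and 0.107 in double-KO (log2 change -3.16 with an SE of 0.76, limma adjusted p = 0.0052, and -2.18 without WT replicate 3), and PDC2 rose by 0.51, not called without double-KO replicate 1 or 3 or without WT replicate 2 (0.47 to 0.55 with any 1 library left out). The small heat shock gene HSP16.9A rose, at 0.600, 0.281 and 1.06 FPKM in WT and 7.73, 7.89 and 6.12 in double-KO (log2 change 2.34 with an SE of 0.24, limma adjusted p = 3.8e-05), and the heat shock factors HSFA2c and HSFA2d did not pass (-0.38 and 0.13).

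Markers of other organs were checked for material from outside the culm. Of 8 anther and pollen genes 5 averaged under 1 FPKM over the 6 libraries, with C6 and EAT1 listed at 0 in all 6 libraries. The 3 tested, UDT1, CYP703A3 and MSP1, rose by 0.97, 0.63 and 1.58, and the list summed to 3.53 to 4.40 FPKM in WT and 12.1 to 13.7 in double-KO. Of 12 floral MADS-box genes 2 were tested: the lodicule and stamen gene MADS16 stood at 34.8, 26.4 and 18.5 FPKM in WT and 77.1, 111 and 102 in double-KO (log2 change 1.85 with an SE of 0.22, limma adjusted p = 8.1e-05) and MADS34 did not pass (0.62), while MADS7 was at 0 in all 6. Of 3 endosperm genes, GluA1 and RAG2 reached at most 0.0275 and 0.182 FPKM and GluA2 did not pass (-0.10). Of the 2 root genes, NRT2.1 reached at most 0.0266 FPKM in the 6 libraries and Lsi1 is described above. The part of such material in the results was not tested. Of 4 reference genes, ACT1 and eEF1A did not pass (0.02 and 0.07, signs that turned under some alternatives), GAPDH rose by 0.64, not called without double-KO replicate 2 or 3 or without WT replicate 2 (0.57 to 0.70 with any 1 library left out), and eIF4A rose, at 288, 255 and 338 FPKM in WT and 903, 707 and 866 in double-KO (log2 change 1.49 with an SE of 0.17, limma adjusted p = 7.4e-05).

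Beyond the lists, the loci with the largest called changes are given by identifier. LOC_Os09g36680 was at 0, 0 and 0.0882 FPKM in WT and at 1117, 4993 and 3957 in double-KO, with no more than 0.687 in any single-line library (log2 change 11.41, limma adjusted p = 1.6e-07). LOC_Os06g21369 was at 0 in all WT libraries and at 150, 122 and 137 in double-KO. LOC_Os08g24200 stood at 89.6, 166 and 1498 FPKM in WT and 0, 0.374 and 3.66 in double-KO, with WT replicate 3 the highest (log2 change -7.25, limma adjusted p = 0.00039, and -6.05 without that library). LOC_Os05g37060 stood at 238, 241 and 354 in WT and at 0.801, 1.00 and 1.08 in double-KO. More widely, 15 tested genes were listed at 0 in every WT library, 9 of them at 1 FPKM or more in every double-KO library. In the other direction, 56 were listed at 0 in every double-KO library, 36 of them at 1 FPKM or more in every WT library. A gene at 0 throughout either group passed the expression filter only through its level in the other group. These counts are therefore partly set by the filter and do not test a difference.

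Set beside the single lines, the lists differed in where double-KO stood. The comparisons share the double-KO libraries, so their values are given side by side only. For starch synthesis the median change was 3.01 against WT, 2.64 against TAC4L-KO and 0.67 against TAC4-KO. For the secondary wall cellulose synthases it was -3.37, -4.11 and -3.34 in the same order, for the brassinosteroid list -0.99, -0.82 and -0.76, and for Aux/IAA -1.07, -1.04 and -1.0. For the JAZ repressors it was -1.80, -0.11 and -0.29, for defence -2.44, -0.70 and 0.05, and for mineral transport -1.62, -0.81 and -0.36. Against both single lines as well as WT, 725 genes were called higher and 1118 lower in double-KO.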

How the data were processed

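Total RNA from culms was made into poly(A) libraries, per the labels' protocols, and HISAT2 is named in the submitters' processing notes. FPKM values of 55986 genes in 12 libraries were deposited by the authors in 1 table; the counting tool, strand setting, gene lengths and genome build used are named by no source used here, so overlapping or near-identical genes are uncertain. FPKM are not counts: limma 3.58.1 (R 4.3.3) was run on log2(FPKM + 1) with a trended prior and 4 group means (8 residual degrees of freedom), on genes averaging at least 1 FPKM over the 6 libraries, with Benjamini-Hochberg adjustment and calls at an adjusted p under 0.05. Fold changes on this scale understate those of low genes. Depth was inferred only relative to WT replicate 1.

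The members and gene lists were chosen with earlier results of these data known. Of 580 pairs of a gene symbol and a locus, 423 were used, those whose RefSeq symbol (assembly ASM3414082v1) lies on the same chromosome within 1.0 Mb of the relative place of the locus; none of the locus identifiers matched RefSeq directly, and tandem neighbours cannot be separated this way. Named were all members of lists with 6 or fewer tested, and of larger lists the 5 largest non-overlapping calls and the 2 most abundant genes, beside 4 loci by identifier; SUT1, SUT2, SSIIc, ISA1, DREB1A and P5CS1, and ARF12, BAK1 and EXPB5 for their calls under other scalings, were added after their values were seen. One named gene is not reported here. The replicate numbers of the titles were not taken as pairs (correlations -0.118, -0.129 and 0.105). These correlations cannot exclude a shared batch.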

Additional observations from a re-analysis of the deposited data

How the results depend on the processing

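Against WT, 9208 genes were called, 7442 to 8899 with 1 library left out and 6401 (minimum of 5 FPKM, 12767 genes tested) to 10321 (no filter, 32549 tested) under the other settings. Leaving out 1 library lost 1150 to 1911 of these calls and turned the direction of 0. Against TAC4-KO, 2779 genes were called and 1380 to 2271 with 1 library left out, among them 1380 without double-KO replicate 3, 1388 without TAC4-KO replicate 1, 1836 without TAC4-KO replicate 2 and 1843 without double-KO replicate 1. Against TAC4L-KO, 6616 were called and 3946 to 6228 with 1 left out, among them 3946 without TAC4L-KO replicate 2 and 4231 without double-KO replicate 3. With the replicate number as a block the counts were 8652, 2470 and 5965, and 5 of the 158 called named genes missed the threshold. Deviations of same-numbered double-KO and WT libraries from their group means correlated at -0.118, -0.129 and 0.105, so the numbers were not taken as pairs. Of those 158 genes, 0 turned direction under any setting, 6 missed the threshold under median-of-ratios scaling, 12 after quantile normalization, 10 with only both compared groups in the fit, 16 without a filter and 10 to 21 with 1 library left out. Named genes that turned sign were all uncalled in the comparison as reported. Under median-of-ratios scaling the log2 change became 0.06 for PAL LOC_Os02g41630, 0.02 for TUBB6, 0.07 for HEMA1, 0.09 for PIP1;1 and 0.04 for OSH1. After quantile normalization it became 0.10 for OSH1, -0.06 for GS1;1, 0.03 for D17, 0.13 for CDKB2;1, 0.17 for GluA2 and -0.21 for eEF1A, and with a pseudocount of 0.1 it became -0.12 for PBZ1. With 1 library left out, changes that took both signs ranged from -0.07 to 0.54 for CESA5, -0.06 to 0.66 for CESA6, -0.30 to 0.21 for PAL LOC_Os02g41630, -0.36 to 0.08 for TUBA2, -0.27 to 0.10 for TUBB6, -0.31 to 0.04 for SUS2, -0.16 to 0.25 for SUS4, -0.08 to 0.27 for HXK6, -0.14 to 0.16 for HEMA1, -0.41 to 0.38 for Fd-GOGAT, -0.28 to 0.17 for PIP1;1, -0.08 to 0.32 for TIP4;1, -0.10 to 0.44 for HSFA2d and -0.16 to 0.40 for MADS55. They ranged from -0.11 to 0.50 for MCM2, -0.31 to 0.20 for OSH1, -0.29 to 0.07 for GluA2, -0.24 to 0.29 for ACT1, -0.09 to 0.17 for eEF1A, -0.57 to 0.02 for IAA17, -0.11 to 0.19 for ARF2, -0.31 to 0.04 for CSLD2 and -0.64 to 0.42 for PBZ1. The cause of these turns was not tested. Depth is known only in relative terms, so no counting error is given for low values.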
